A study of Mus musculus with 8 samples.

Results

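Genes of red cell formation and haem synthesis were followed in mouse cells carrying the leukaemia fusion NUP98-HOXA9, deletion mutants of it, or no fusion. The set holds 31 genes chosen by symbol for their known roles: erythroid transcription factors, haem synthesis enzymes, iron importers, proteins of the red cell membrane and its skeleton, channels and blood group proteins, carbonic anhydrases, and a few further erythroid genes. Of these, 30 were measured, each by 1 probe set, out of 19938 gene symbols on the array. Epb41, a protein of the membrane skeleton, had no probe set annotated with a single symbol and is not analysed here. Earlier results of these data were known when the set was chosen, so its shares are not independent of them.

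Red cell precursors are driven by Gata1, Tal1 and Klf1, transcription factors that bind GATA, E-box and CACCC sequences, and Lmo2 bridges Gata1 and Tal1 in a shared complex. These cells take up transferrin-bound iron and build haem in a chain of enzymes that begins with aminolevulinate synthase (Alas2 in erythroid cells) and ends with ferrochelatase, which inserts the iron. As they mature they add a membrane skeleton of spectrin, ankyrin and adducin, and with it the anion exchanger, the Rh and Kell complexes and the water channel Aqp1.

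The arrays fell into 4 groups of 2, all of C57BL/6 strain: cells with NUP98-HOXA9 delFG2, cells with NUP98-HOXA9 delFG1, cells with full-length NUP98-HOXA9, and cells with an empty vector. NUP98-HOXA9 joins the phenylalanine-glycine (FG) repeats of the nucleoporin NUP98 to the DNA-binding part of HOXA9, and the design asks which genes depend on the NUP98 part. The sources used here do not give which residues each mutant lacks, nor the type of cell, the array model or whether the fusion cDNA is human or mouse. The arrays of each group are numbered 1 and 2, nothing in the labels says that they came from separate cultures, and p-values therefore reflect only how these samples vary, which may be technical variation.

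The values were deposited as intensities and are given here as log2(intensity + 1), called the log2 signal. Median intensity lay between 80.7 and 83.2 on the 8 arrays. Arrays of a group correlated with r between 0.995 and 0.996, while the closest pair of all, with r of 0.999, joined the full-length and delFG1 arrays numbered 2. The log2 signal of the 21789 probe sets tested had quartiles of 5.41, 6.74 and 9.06. No detection call comes with the table, so low signals cannot be told from background. Differences were tested with limma across all 21789 probe sets, and a gene is said to have passed when its Benjamini-Hochberg adjusted p was under 0.05. A second limma fit added the array number as a block, since arrays of the same number deviated together in every pair of groups. The main calls are given from both fits, and where only 1 value is given the fit is named.

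Several defining erythroid markers gave low signals. Of 13 markers of erythroid cells, 7 were measured by a probe set of their own (Alas2, Epb42, Slc4a1, Klf1, Epor, Rhag and Hemgn), and 6 of these belong to the set described. Alas2 lay between 5.72 and 5.93 on the 8 arrays, Epb42 between 5.25 and 5.54, and Slc4a1, the anion exchanger, between 6.09 and 6.42, all under the median of the array, while Klf1 lay between 6.93 and 7.08. The adult globin probe sets carry several symbols each and are not used here. The summed intensity of the 7 markers was 561 to 576 in delFG2 cells, 502 to 556 in delFG1 cells, 510 to 518 in full-length cells and 590 to 612 in empty vector cells. Within it, Rhag was 88.2 and 87 in empty vector and 45.9 and 54.8 in full-length cells, and Hemgn 117 and 92.9 against 80.5 and 79.2. Epb42 and Epor were slightly lower on both full-length arrays. The arrays of Alas2, Slc4a1 and Klf1 overlapped between these groups, so the sum does not show a shared fall. Because RNA came from bulk cells, fewer cells of a type and less RNA per cell cannot be told apart.

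Across the 30 genes, levels ran from near the bottom of the scale to well above its upper quartile. Lmo2 (10.26 to 10.81), Tfrc (10.33 to 10.69), Nfe2 (10.23 to 10.56), Urod (9.84 to 10.19) and Car2 (9.26 to 10.29) gave strong signals on every array. Alas2, Epb42, Rhag, Rhd, Kel, Tspo2 and Trim10 averaged under 6, among the lower signals of the array. Levels of different probe sets do not rank the genes' RNA amounts.

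Rhag, the Rh-associated glycoprotein that carries the Rh complex of the red cell membrane and conducts ammonia, had the largest difference of the 30 genes over the 6 comparisons. Its log2 signal was 6.29 and 6.25 in delFG2 cells, 5.41 and 5.68 in delFG1 cells, 5.55 and 5.80 in full-length cells, and 6.48 and 6.46 in empty vector cells. Every delFG1 and full-length array lay below every delFG2 and empty vector array, and the delFG2 arrays lay just under those of the empty vector. In delFG1 cells Rhag fell to 0.528 of the signal with the empty vector (log2 difference -0.92, 95% interval -1.19 to -0.65, limma adjusted p = 0.0318, and 0.000551 with the replicate block). The delFG1 signals lie near the lower quartile of the array, where signal cannot be told from background, so the ratio holds for the deposited signal only, and a filter on mean log2 of at least 6 drops the gene. This was the only call among the 30 genes without the block.

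With full-length NUP98-HOXA9 the Rhag difference from the empty vector was -0.79, a signal ratio of 0.578, with a limma adjusted p of 0.0636 without the block and 0.00142 with it. Over 26 alternative settings the adjusted p ran between 0.000384 and 0.324 for delFG1 cells and between 0.000733 and 0.486 for full-length cells, and all 12 settings with the block passed in both. Of the 14 settings without the block, 5 passed for delFG1 and 2 for full-length cells. Against full-length cells, delFG2 cells had more Rhag by 0.59 (limma adjusted p = 0.763, and 0.0421 with the block; 0.0185 to 1 over the alternatives). Against delFG1 cells they had more by 0.72 (limma adjusted p = 0.719, and 0.0174 with the block; 0.00552 to 1). Between delFG2 and empty vector cells Rhag differed by -0.20, with an interval of -0.47 to 0.07 that includes 0. These comparisons share arrays: the 2 full-length arrays, for instance, serve both the comparison with the empty vector and that with delFG2.

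Aqp1, the water channel of red cells, had a log2 signal of 6.83 and 6.57 in delFG2 cells, 6.31 and 6.32 in delFG1 cells, 6.30 and 6.19 in full-length cells, and 6.74 and 6.90 in empty vector cells. The delFG1 and full-length arrays again lay below all others, and the delFG2 arrays overlapped those of the empty vector. Aqp1 was lower in full-length than in empty vector cells (log2 difference -0.58, limma adjusted p = 0.167, and 0.0139 with the block; 0.0091 to 0.697 over the alternatives). In delFG1 cells the difference from the empty vector was -0.51 (limma adjusted p = 0.202, and 0.0278 with the block; 0.0232 to 1). The difference between delFG2 and full-length cells, 0.46, did not pass in either fit (limma adjusted p = 1, and 0.182 with the block).

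Kel, the Kell blood group protein and a membrane metallopeptidase, had a log2 signal of 5.78 and 5.70 in delFG2 cells, 5.53 and 5.59 in delFG1 cells, 5.41 and 5.56 in full-length cells, and 6.17 and 5.90 in empty vector cells. The delFG1 and full-length arrays overlapped at the low end, the delFG2 arrays lay above them and the empty vector arrays were highest. Kel was lower than with the empty vector by a log2 difference of -0.54 in full-length cells (limma adjusted p = 0.137, and 0.0102 with the block; 0.00307 to 0.854 over the alternatives). In delFG1 cells the difference was -0.47 (limma adjusted p = 0.176, and 0.0219 with the block; 0.00603 to 1). All of these signals lay at or above the lower quartile and under the median of the array.

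The remaining channel and blood group genes did not pass in either fit, though Ermap in full-length cells passed with the block under median centring. Ermap, the Scianna blood group protein, had a log2 signal of 6.44 and 6.93 in delFG2 cells, 6.17 and 6.49 in delFG1 cells, 6.36 and 6.21 in full-length cells, and 7.14 and 6.75 in empty vector cells. All delFG1 and full-length arrays lay below both empty vector arrays, with differences of -0.61 and -0.66 and limma adjusted p of 0.335 and 0.331 without the block and 0.0799 and 0.0547 with it. Xk, the membrane protein bound to Kel, had differences of 0.25 in delFG1 and 0.13 in full-length cells. Rhd, the partner of Rhag in the Rh complex, differed from the empty vector by -0.14 in both. In this group of 6, both full-length arrays were below both empty vector arrays for 5 genes, where 15.6% of all probe sets were. The median difference of the 6 was -0.56, and that of all probe sets 0.02.

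**Figure D1:**
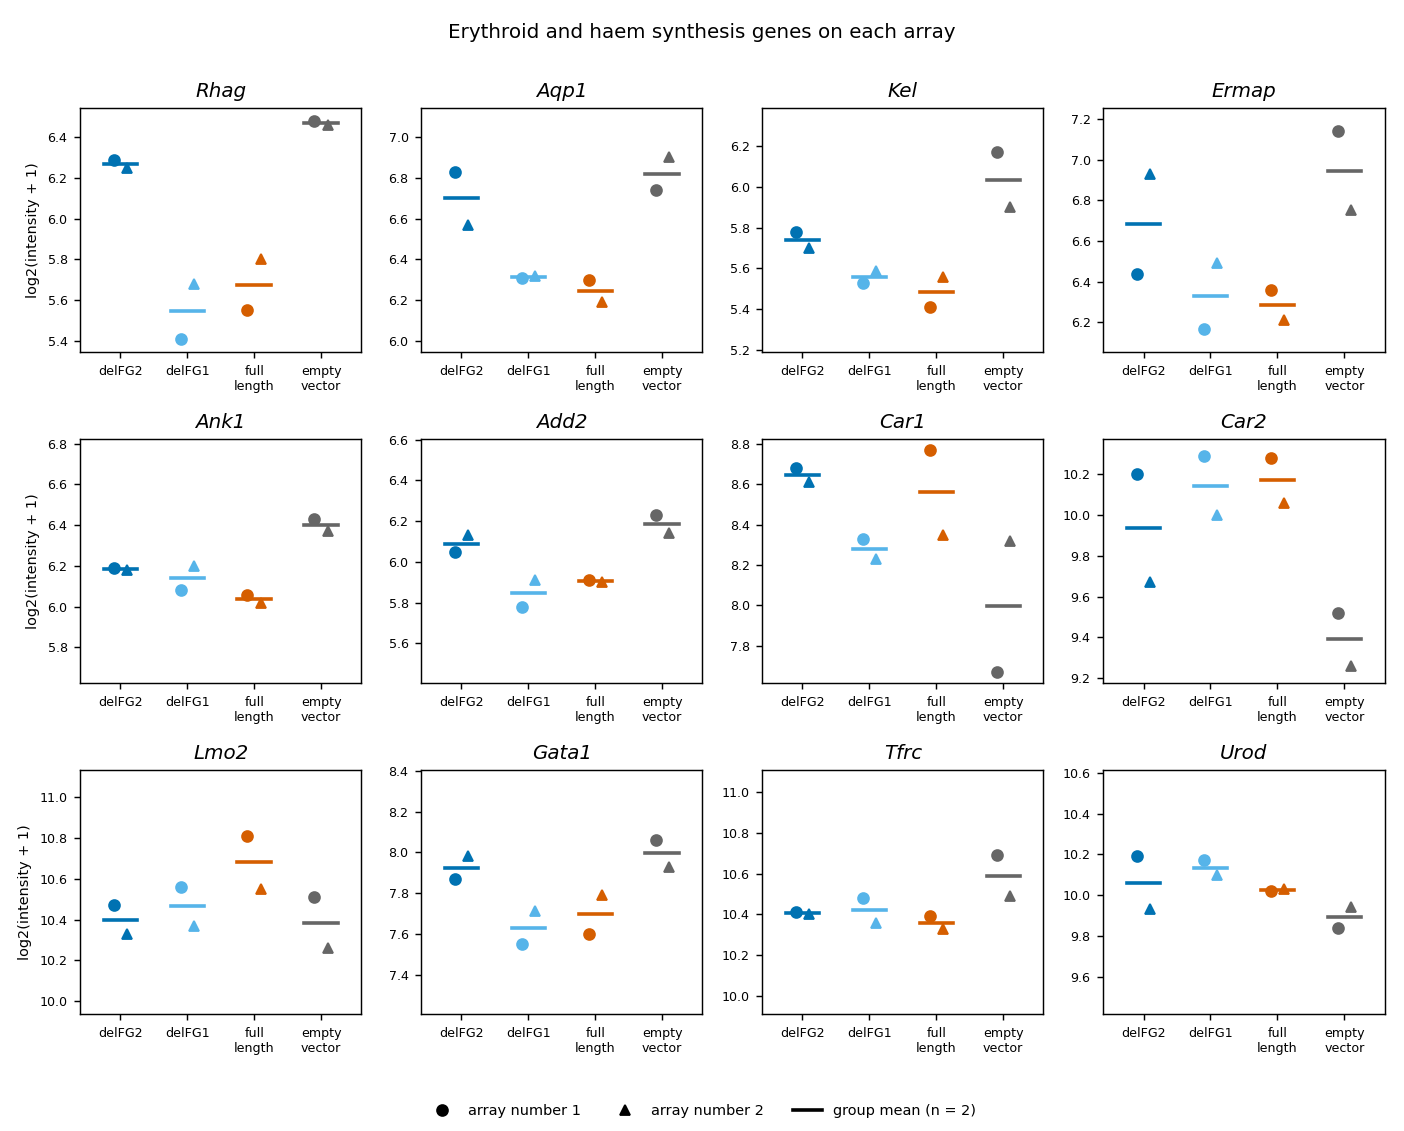
Log2(intensity + 1) of 12 genes on each of the 8 arrays, by group from delFG2 to empty vector. Circles are arrays numbered 1, triangles arrays numbered 2 and bars group means (n = 2), and each panel has its own vertical range. For Rhag and Aqp1 the delFG1 and full-length arrays lie below the delFG2 and empty vector arrays, and for Car2 the empty vector arrays are lowest.

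The promoters of the called channel genes are shown because the letters that Gata1 and Klf1 bind can be read in them. Windows of 300 bases around the start, from RefSeq on GRCm38.p6, were at hand for 21 of the 30 genes. The motifs searched on both strands were AGATAA or TGATAA for GATA and CACCC, and matches, none of which overlap in these windows, are printed in capitals. Rhag lies at chr17:40810899-40811198 on the plus strand, Aqp1 at chr6:55336049-55336348 on the plus strand and Kel at chr6:41704276-41704575 on the minus strand.
Rhag: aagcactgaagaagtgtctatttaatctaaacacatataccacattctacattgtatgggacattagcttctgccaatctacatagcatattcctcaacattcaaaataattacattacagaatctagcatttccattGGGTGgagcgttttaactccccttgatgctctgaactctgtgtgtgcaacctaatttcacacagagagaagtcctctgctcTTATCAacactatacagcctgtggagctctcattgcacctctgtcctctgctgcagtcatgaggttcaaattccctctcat
Aqp1: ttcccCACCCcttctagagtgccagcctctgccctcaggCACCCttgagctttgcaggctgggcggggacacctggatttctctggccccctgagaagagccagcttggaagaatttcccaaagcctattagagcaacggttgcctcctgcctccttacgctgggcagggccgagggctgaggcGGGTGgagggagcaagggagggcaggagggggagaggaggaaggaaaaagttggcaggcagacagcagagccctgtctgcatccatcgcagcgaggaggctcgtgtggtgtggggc
Kel: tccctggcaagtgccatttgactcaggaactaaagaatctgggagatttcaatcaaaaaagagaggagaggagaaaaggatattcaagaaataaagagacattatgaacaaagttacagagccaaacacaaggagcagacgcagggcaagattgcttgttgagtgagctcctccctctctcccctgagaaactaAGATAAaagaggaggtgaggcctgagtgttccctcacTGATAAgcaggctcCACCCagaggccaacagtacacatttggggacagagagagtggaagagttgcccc
The Rhag window holds 1 GATA match, on the opposite strand at positions -31 to -26 (negative positions lie before the start), and 1 CACCC match. The Kel window holds 2 GATA matches, of which the nearer to the start lies at -19 to -14, and 1 CACCC match. The Aqp1 window holds 0 GATA and 3 CACCC matches. Among the 21 genes with a window, 11 (52.4%) held a GATA match, against 5122 of 27025 genes (19.0%), and 18 (85.7%) held a CACCC match, against 56.7% of those genes. The genes were chosen as erythroid, a match is only a run of letters, and binding was not measured.

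Of the 2 carbonic anhydrases, which interconvert carbon dioxide and bicarbonate, Car2 was higher with the fusion in the fit with the block. It had a log2 signal of 10.20 and 9.67 in delFG2 cells, 10.29 and 10.00 in delFG1 cells, 10.28 and 10.06 in full-length cells, and 9.52 and 9.26 in empty vector cells. All 6 fusion arrays lay above both empty vector arrays, and in each group the array numbered 2 was lower. Against the empty vector, Car2 was higher by 0.54 in delFG2 cells (limma adjusted p = 1, and 0.0314 with the block; 0.00693 to 1 over the alternatives), by 0.75 in delFG1 cells (limma adjusted p = 0.224, and 0.000585 with the block) and by 0.78 in full-length cells (limma adjusted p = 0.255, and 0.000502 with the block). The ratio of signals was 1.46, 1.69 and 1.71 in that order. Over 27 alternatives the adjusted p ran between 0.000271 and 1 for delFG1 and between 0.000242 and 1 for full-length cells, where all 12 settings with the block and 0 of 15 without it passed for both.

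Car1 had a log2 signal of 8.68 and 8.61 in delFG2 cells, 8.33 and 8.23 in delFG1 cells, 8.77 and 8.35 in full-length cells, and 7.67 and 8.32 in empty vector cells. The 2 empty vector arrays were far apart, so that the full-length difference was 1.10 between arrays numbered 1 and 0.03 between those numbered 2. Car1 did not pass in any comparison (limma adjusted p = 0.447, and 0.123 with the block, for the full-length mean difference of 0.56).

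Of the transcription factors, Lmo2 alone passed, and only with the block. Its log2 signal was 10.47 and 10.33 in delFG2 cells, 10.56 and 10.37 in delFG1 cells, 10.81 and 10.55 in full-length cells, and 10.51 and 10.26 in empty vector cells. The full-length arrays were above the empty vector arrays, with a gap between the nearest arrays that was smaller than the gap inside either group. The difference was 0.29 (limma adjusted p = 0.527, and 0.0249 with the block; 0.0249 to 1 over the alternatives). Lmo2 was also lower on arrays numbered 2 than on those numbered 1 across the groups (log2 difference -0.21, limma adjusted p = 0.0172).

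Gata1 had a log2 signal of 7.87 and 7.98 in delFG2 cells, 7.55 and 7.71 in delFG1 cells, 7.60 and 7.79 in full-length cells, and 8.06 and 7.93 in empty vector cells. The delFG1 and full-length arrays lay below all others, yet neither difference from the empty vector, -0.36 and -0.30, passed (limma adjusted p = 0.385 and 0.488 without the block, and 0.0857 and 0.148 with it). Klf1, which activates adult globin and membrane genes, differed from the empty vector by 0.00 in delFG2, -0.08 in delFG1 and -0.06 in full-length cells. Tal1 and Nfe2, a subunit of a factor that acts in red cell and platelet precursors, did not pass either. Over the 6 comparisons the 95% intervals of all 5 transcription factors, in the fit without the block, lay between -0.65 and 0.59.

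The haem synthesis enzymes gave no call in any of the 6 comparisons, with or without the block. Urod, uroporphyrinogen decarboxylase, had the smallest p of them. Its log2 signal was 10.19 and 9.93 in delFG2 cells, 10.17 and 10.10 in delFG1 cells, 10.02 and 10.03 in full-length cells, and 9.84 and 9.94 in empty vector cells. Both delFG1 and both full-length arrays lay above the empty vector arrays, while a delFG2 array overlapped them. The delFG1 difference of 0.25 had an unadjusted limma p of 0.0514. Alas2, Cpox, Ppox and Fech, which with Urod cover the first step and the late steps of the chain, did not pass either. Without the block 0 of the 5 enzymes had an unadjusted limma p under 0.05, where 2.07% to 9.61% of all probe sets did by comparison. With it the unadjusted p was 0.019 for Urod in delFG1 against empty vector cells, and for Ppox 0.0396 in delFG2 against full-length cells and 0.0317 in delFG2 against delFG1 cells. Over all 5 enzymes and all 6 comparisons, differences lay between -0.20 and 0.25. Their 95% intervals, in the fit without the block, lay between -0.52 and 0.54. Those bounds are the extremes over genes and comparisons, and the interval of a single gene was narrower. Changes inside a gene's own interval were not excluded.

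Of the iron importers, Tfrc, the transferrin receptor, had a log2 signal of 10.41 and 10.40 in delFG2 cells, 10.48 and 10.36 in delFG1 cells, 10.39 and 10.33 in full-length cells, and 10.69 and 10.49 in empty vector cells. Every fusion array lay below both empty vector arrays, by a small margin. The full-length difference of -0.23 did not pass (limma unadjusted p = 0.0483, adjusted p = 0.519, and 0.095 with the block). Slc25a37, the mitochondrial iron importer mitoferrin, differed from the empty vector by 0.05 in delFG2, -0.07 in delFG1 and -0.06 in full-length cells.

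In the membrane skeleton, Ank1, the ankyrin that ties spectrin to the anion exchanger, had a log2 signal of 6.19 and 6.18 in delFG2 cells, 6.08 and 6.20 in delFG1 cells, 6.06 and 6.02 in full-length cells, and 6.43 and 6.37 in empty vector cells. All 6 fusion arrays lay below both empty vector arrays. The full-length difference of -0.36 passed only with the block (limma adjusted p = 0.258, and 0.0471 with the block; 0.0318 to 0.995 over the alternatives), and the call was lost when any 1 of the 8 arrays was left out, with an adjusted p of 0.0612 to 0.288. Add2, the beta subunit of adducin, had a log2 signal of 6.05 and 6.13 in delFG2 cells, 5.78 and 5.91 in delFG1 cells, 5.91 and 5.90 in full-length cells, and 6.23 and 6.14 in empty vector cells. Its differences of -0.34 in delFG1 and -0.28 in full-length cells did not pass (limma adjusted p = 0.239 and 0.368 without the block, and 0.059 and 0.114 with it). Sptb, the beta chain of spectrin, Epb42, Slc4a1 and Gypc, a glycophorin, did not pass in any comparison.

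Among the last 4 genes, Tspo2, an erythroid relative of the mitochondrial translocator protein, had the smallest p. Its log2 signal was 5.80 and 5.58 in delFG2 cells, 5.44 and 5.36 in delFG1 cells, 5.56 and 5.53 in full-length cells, and 5.61 and 5.63 in empty vector cells. The delFG2 arrays lay above the delFG1 arrays by 0.29 on average, which did not pass (limma unadjusted p = 0.00989, adjusted p = 1, and 0.264 with the block). Hemgn, a nuclear protein of blood progenitors, differed from the empty vector by -0.38 in full-length cells (limma adjusted p = 0.419, and 0.103 with the block). Trim58, a ubiquitin ligase of late red cell precursors, and Trim10, a TRIM protein of erythroid cells, differed from it by at most 0.06 in size in the fusion groups.

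Counted together, 21 of the 30 genes had a negative difference and 9 a positive one in full-length cells against the empty vector. In this comparison 0 of 30 passed without the block in limma, where 0.124% of all probe sets did, and 11 of 30 had an unadjusted p under 0.05, where 9.54% of all did. With the block 2 were higher and 4 lower, where 2.18% of all probe sets were higher and 4.43% lower. Both full-length arrays were below both empty vector arrays for 15 of 30, where 15.6% of all probe sets were, and above them for 4, where 23.4% were. The median difference of the 30 was -0.08, and that of all probe sets 0.02.

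Against the empty vector, delFG1 cells gave 1 lower call of 30 without the block, where 0.0413% of all probe sets were lower and 0.129% passed in either direction. An unadjusted limma p under 0.05 was reached by 9 of 30, where 9.61% of all probe sets reached it. With the block 1 was higher and 3 lower, where 1.94% of all were higher and 4.18% lower. Both delFG1 arrays were below both empty vector arrays for 13 genes, where 16.1% of all probe sets were, and above them for 4, where 24.6% were. The median was -0.08, and that of all probe sets 0.02.

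In delFG2 cells against the empty vector, 0 of 30 passed without the block in limma, where 0.00459% of all probe sets did, and 4 had an unadjusted p under 0.05, where 4.43% of all did. With the block 1, Car2, was higher, where 0.106% of all were, and 0 were lower, where 0.399% were. Both delFG2 arrays were below both empty vector arrays for 9 genes, where 13.0% of all probe sets were, and above them for 5, where 16.3% were. The median was -0.05, and that of all probe sets 0.01.

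Between delFG2 and full-length cells, 0 of 30 passed without the block in limma, where 0.0275% of all probe sets did, and 3 had an unadjusted p under 0.05, where 2.76% did. With the block Rhag was higher, where 0.298% of all were, and 0 genes were lower, where 0.170% were. Both delFG2 arrays were above both full-length arrays for 15 genes, where 11.7% of all probe sets were, and below them for 1, where 14.1% were. The median was 0.08, and that of all probe sets -0.01. Between delFG2 and delFG1 cells, 0 passed without the block in limma, where 0% of all probe sets did, 5 had an unadjusted p under 0.05, where 3.13% did, and with the block Rhag was higher, where 0.404% of all were, and 0 were lower, where 0.133% were. Both delFG2 arrays were above both delFG1 arrays for 11 genes, where 11.7% of all were, and below them for 1, where 15.3% were, with a median of 0.05 against -0.01 for all.

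Between delFG1 and full-length cells, 0 of 30 passed in limma without the block, where 0.00918% of all probe sets did. In that fit 0 had an unadjusted p under 0.05, where 2.07% did. With the block 0 passed, where 0.0780% of all probe sets did. There Lmo2 had the smallest unadjusted limma p, 0.00813 (log2 difference -0.22, adjusted p = 0.795). The 30 differences lay between -0.27 and 0.17 and their 95% intervals, in the fit without the block, between -0.76 and 0.50. Both delFG1 arrays were above both full-length arrays for 6 genes, where 13.3% of all probe sets were, and below them for 2, where 12.4% were.

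**Figure D2:**
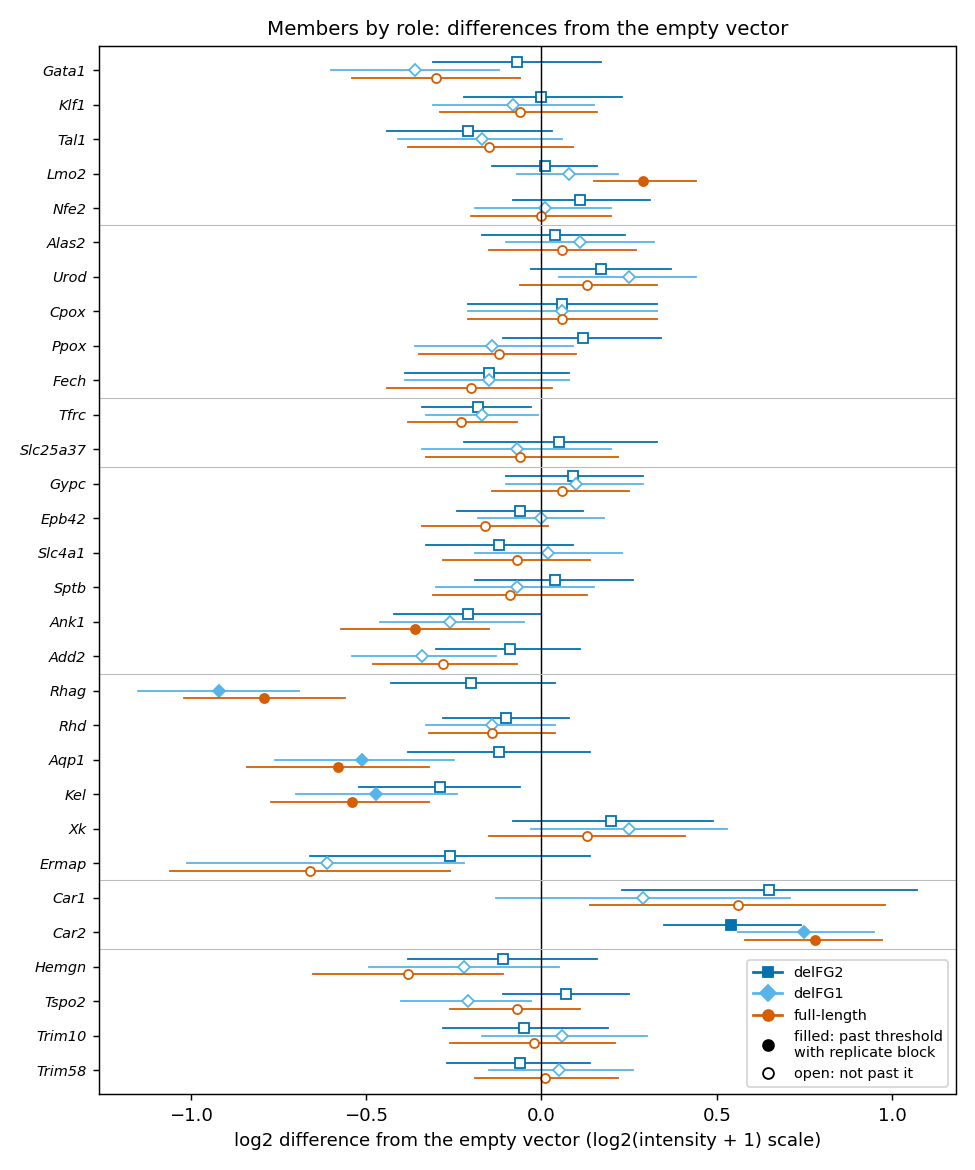
Log2 difference from the empty vector of the 30 genes, grouped by role from transcription factors at the top to other erythroid genes at the bottom, for delFG2 (squares), delFG1 (diamonds) and full-length cells (circles). Lines are 95% intervals of the limma fit with the replicate block, and filled symbols passed the adjusted p threshold in it. Rhag, Aqp1 and Kel are filled to the left for delFG1 and full-length cells, and Car2 to the right for all 3.

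**Figure D3:**
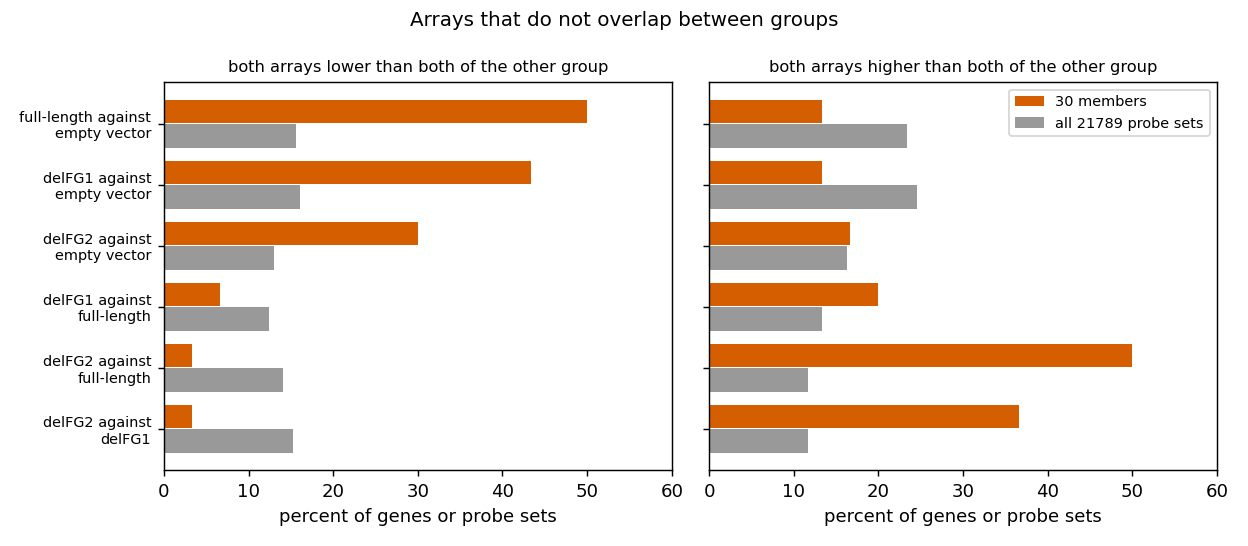
Percent of the 30 genes (orange) and of all 21789 probe sets (grey) for which both arrays of the group named first were lower (left) or higher (right) than both arrays of the other. The genes' bars are longest on the left for full-length against empty vector (15 of 30) and on the right for delFG2 against full-length (15 of 30), and comparisons that share a group share its arrays.

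Some of the genes also differed by array number, a smaller share than among all probe sets. In the fit with group and number, Lmo2 and Car2 were lower on arrays numbered 2, 2 of 30, where 11.2% of all probe sets differed by number. The Car2 difference was -0.33 (limma adjusted p = 0.00718). The labels do not say what the numbers stand for.

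Leaving out single arrays in the fit with the block separated the calls. Rhag and Car2 in delFG1 and in full-length cells against the empty vector passed in all 8 such fits. The Rhag difference ranged from -1.02 to -0.82 in delFG1 and from -0.88 to -0.70 in full-length cells, and the Car2 difference from 0.71 to 0.80 and from 0.70 to 0.85. Aqp1 in full-length cells was lost without either full-length array or the empty vector array numbered 2, and Kel without the empty vector or full-length array numbered 1. The limma adjusted p then reached 0.149 for Aqp1 and 0.165 for Kel. In delFG1 cells Aqp1 was lost in 5 of 8 fits, without any 1 of the delFG1 or full-length arrays or the empty vector array numbered 2, and Kel in 3, without either delFG1 array or the empty vector array numbered 1, with adjusted p of up to 0.275 and 0.241. Lmo2 was lost in 4, without any 1 of the delFG1 or full-length arrays (up to 0.24). Car2 in delFG2 cells was lost in 4, without either full-length array, the delFG2 array numbered 1 or the empty vector array numbered 1 (up to 0.465). For Rhag, the difference of delFG2 from full-length cells was lost without any 1 of their 4 arrays (up to 0.564), and that of delFG2 from delFG1 cells without either delFG2 array or the delFG1 array numbered 1 (up to 0.33). Without the block, the Rhag call in delFG1 cells remained in 1 of the 8 fits, that without the delFG1 array numbered 2.

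Some markers of other blood cells also differed between the groups. The summed intensities of mast cell and of neutrophil markers overlapped between full-length and empty vector cells. The summed intensity of 8 measured of 12 megakaryocyte and platelet markers was 2667 to 3256 in delFG2 cells, 1937 to 1975 in delFG1 cells, 2053 to 2368 in full-length cells and 3129 to 3230 in empty vector cells. With the block, 4 of these 8 were lower and 1 higher in full-length cells than with the empty vector, and 5 lower in delFG1 cells. Of all probe sets, 4.43% were lower and 2.18% higher in full-length cells, and 4.18% lower and 1.94% higher in delFG1 cells. Ppbp, a platelet chemokine, differed by -1.63 in full-length cells (limma adjusted p = 0.0203 without the block). The 10 mast cell and basophil markers summed to 12466 to 14794 in delFG2, 9315 to 11656 in delFG1, 11700 to 13731 in full-length and 13373 to 14966 in empty vector cells, with 4 lower and 1 higher in full-length cells and 7 lower in delFG1 cells with the block.

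The sum of 9 measured of 10 monocyte and macrophage markers was 17835 to 21568 in delFG2, 15632 to 18298 in delFG1, 16671 to 18728 in full-length and 20681 to 25424 in empty vector cells, and that of 10 neutrophil markers was 62338 to 63989, 56891 to 62190, 55844 to 61803 and 60828 to 62608 in the same order of groups. With the block 6 monocyte and 4 neutrophil markers were lower in full-length cells than with the empty vector, and 1 of each was higher. Of all probe sets 4.43% were lower and 2.18% higher. In delFG1 cells 7 of the 9 monocyte markers were lower and 1 higher, and 3 of the 10 neutrophil markers lower and 2 higher. There 4.18% of all probe sets were lower and 1.94% higher. The part of these cell types in the differences of the erythroid genes was not tested.

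A wider list of 77 further genes of globin, haem, iron and red cell biology was read for comparison, of which 66 were measured. Without the block 0 passed in limma in each of the 6 comparisons, and an unadjusted p under 0.05 was reached against the empty vector by 15 in full-length, 15 in delFG1 and 3 in delFG2 cells, where 9.54%, 9.61% and 4.43% of all probe sets reached it. Against full-length cells it was reached by 3 in delFG1 and 2 in delFG2 cells, where 2.07% and 2.76% of all did, and between the mutants by 8, where 3.13% did. With the block 1 was higher and 11 lower in full-length cells against the empty vector, where 2.18% of all probe sets were higher and 4.43% lower. In delFG1 cells 2 were higher and 10 lower, where 1.94% and 4.18% were, and in delFG2 cells 0 were higher and 2 lower, where 0.106% and 0.399% were. Between delFG2 and delFG1 cells 1 was lower, where 0.133% of all were, and against full-length cells 0 passed for either mutant.

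Of the 17 measured genes of haem synthesis, transport and breakdown, 4 were lower with the block in full-length cells, where 4.43% of all probe sets were, and 4 in delFG1 cells, where 4.18% were. Flvcr1, described as a haem exporter, had a log2 signal of 8.99 and 9.14 in delFG2 cells, 9.03 and 9.03 in delFG1 cells, 9.11 and 9.04 in full-length cells, and 9.58 and 9.57 in empty vector cells. These values are from the probe set with the higher mean of 2 for Flvcr1, and the other is not given here. All 6 fusion arrays lay close together and below the empty vector arrays. The Flvcr1 differences were -0.51, -0.55 and -0.50 in delFG2, delFG1 and full-length cells, with limma adjusted p of 0.0349, 0.00335 and 0.00611 with the block, and of 0.87, 0.107 and 0.155 without it.

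Hmox1, haem oxygenase, which opens the haem ring, had a log2 signal of 9.85 and 10.57 in delFG2 cells, 9.73 and 10.17 in delFG1 cells, 9.73 and 10.17 in full-length cells, and 10.40 and 10.94 in empty vector cells. In each group the array numbered 2 was higher, by 0.54 over all groups, and the delFG2 arrays overlapped those of the empty vector. Its differences from the empty vector were -0.46, -0.72 and -0.72 in delFG2, delFG1 and full-length cells, with limma adjusted p of 0.0422, 0.000584 and 0.000583 with the block and of 1, 0.455 and 0.449 without it. Flvcr2, a relative of Flvcr1, was lower than with the empty vector, with differences of -0.91 in delFG1 and -0.88 in full-length cells, and so was Blvrb, a biliverdin reductase, with -0.60 and -0.54. The limma adjusted p with the block were 0.00314 and 0.0044 for Flvcr2 and 0.00271 and 0.00548 for Blvrb, and without it 0.487 and 0.502 for Flvcr2 and 0.302 and 0.385 for Blvrb. Both were also higher on arrays numbered 2, by 0.70 and 0.30.

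**Figure D4:**
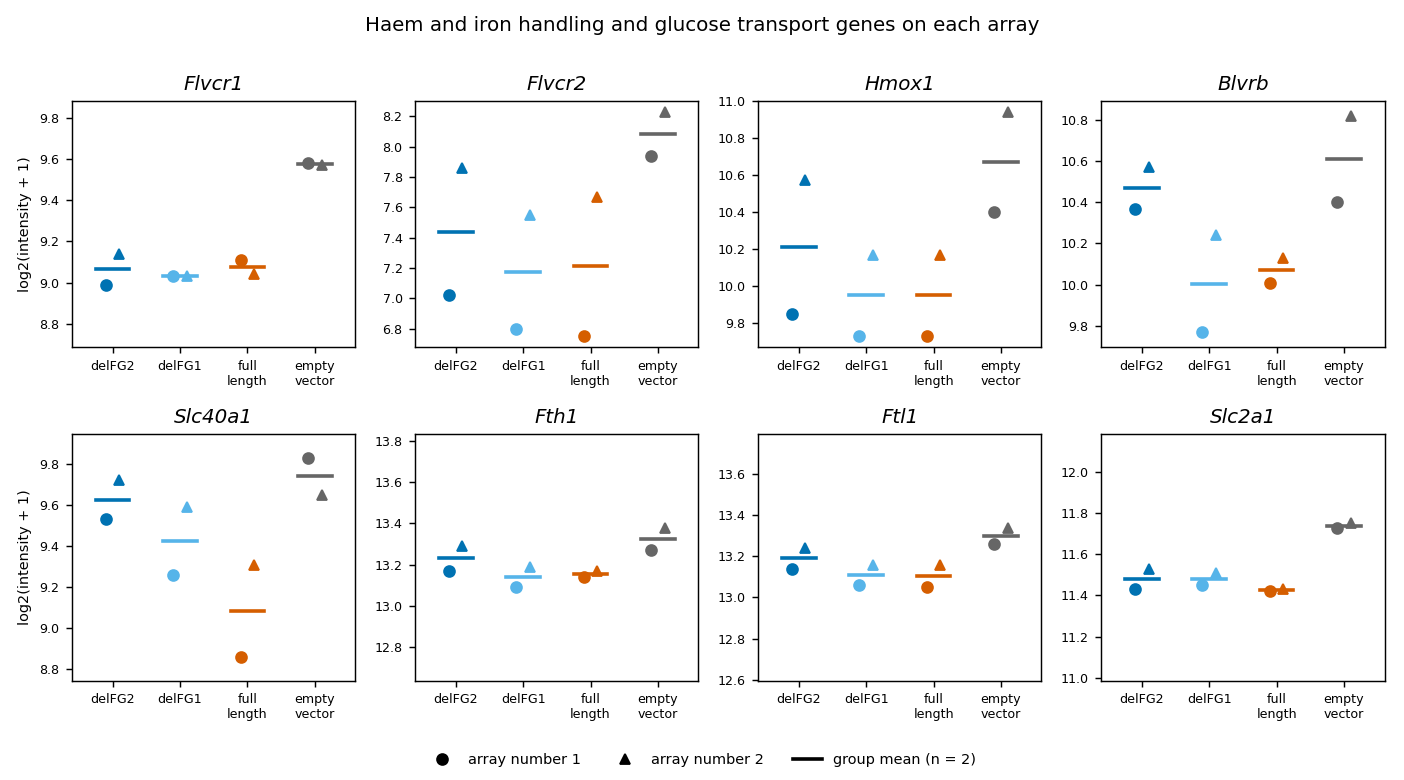
Log2(intensity + 1) of 8 haem, iron and glucose transport genes on each of the 8 arrays, drawn as circles (number 1) and triangles (number 2) with group means (n = 2). The Flvcr1 and Slc2a1 arrays of all 3 fusion groups lie below those of the empty vector, while Hmox1 and Flvcr2 also differ between the array numbers.

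Of the 11 measured iron genes of the wider list, 3 were lower with the block in full-length and 2 in delFG1 cells. Of all probe sets 4.43% and 4.18% were. Slc40a1, the iron exporter ferroportin, had a log2 signal of 9.53 and 9.72 in delFG2 cells, 9.26 and 9.59 in delFG1 cells, 8.86 and 9.31 in full-length cells, and 9.83 and 9.65 in empty vector cells. The full-length arrays lay below all delFG2 and empty vector arrays and overlapped those of delFG1, and the full-length difference from the empty vector was -0.65 (limma adjusted p = 0.28, and 0.0115 with the block). Fth1 and Ftl1, the ferritin chains, were lower in full-length cells with the block alone, with differences of -0.17 and -0.19. Their delFG1 means were much the same as the full-length ones. For Fth1 the means were 13.14 in delFG1, 13.15 in full-length and 13.32 in empty vector cells, and for Ftl1 13.11, 13.11 and 13.30. Ferritin genes have near-identical copies in the genome, so their signals are uncertain.

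Other calls with the block, here all against the empty vector but the last, were spread over the wider list. Slc2a1, a glucose transporter, had a log2 signal of 11.43 and 11.53 in delFG2, 11.45 and 11.51 in delFG1, 11.42 and 11.43 in full-length, and 11.73 and 11.75 in empty vector cells, and differed from the empty vector by -0.31 in full-length cells (limma adjusted p = 0.24, and 0.00702 with the block). Cat, catalase, differed by -0.39 in full-length and -0.33 in delFG1 cells. In full-length cells E2f2, a cell cycle factor, and Add1, the alpha subunit of adducin, were lower (differences of -0.49 and -0.27), and Myb, a progenitor transcription factor, was higher by 0.32. The delFG1 means of E2f2, Add1 and Myb lay near the full-length ones: 9.32, 10.16 and 11.27 in delFG1 and 9.26, 10.10 and 11.28 in full-length cells. The empty vector means were 9.75, 10.38 and 10.96. In delFG1 cells Gfi1b, a repressor of erythroid and megakaryocytic cells, and Gata2 were lower (differences of -0.53 and -0.35), and Mpp1, a membrane skeleton protein, was higher by 0.50. For Gfi1b, Gata2 and Mpp1 the full-length means were 8.90, 10.30 and 11.46, and the empty vector means 9.23, 10.34 and 11.36. Mpp1 was lower in delFG2 than in delFG1 cells (difference -0.37, limma adjusted p = 1, and 0.0375 with the block).

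The 5 embryonic and theta globin genes measured did not pass in any comparison. The Epor difference from the empty vector, that of the erythropoietin receptor, was -0.10 in delFG2, -0.21 in delFG1 and -0.21 in full-length cells, and it did not pass.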

How the data were processed

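Total RNA of 8 mouse cell samples was hybridised to Affymetrix arrays, with fragmented single-stranded DNA labelled by a whole-transcript kit, per the labels' protocols. The authors deposited linear intensity values of 28853 probe sets in 1 table; the sources used here do not give its background correction, summarisation or normalisation. From the deposited intensities, log2(intensity + 1) was computed, with no further scaling. Gene names came from the platform annotation: 21789 probe sets carried 1 symbol, 1621 several and 5443 none, and only the first were tested. A gene with several probe sets was read by the one with the highest mean, but no member had more than 1. The number of arrays limits the precision.

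Differences were tested two-sided with limma 3.58.1 in R 4.3.3 (lmFit, eBayes with an intensity trend, 8 arrays, group means), adjusted by Benjamini-Hochberg over all 21789 probe sets, with a threshold of 0.05. Residual degrees of freedom were 4 and prior ones 4.62, against 3 and 7.78 with the replicate block. The labels do not say what the array numbers stand for, and the block rests on the values themselves. In all 6 pairs of groups, arrays with the same number in the labels deviated from their group means together, with r of 0.401 to 0.640.

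All members are named by role; values on every array are given for members past the threshold in either fit and for the smallest p of a role without one, and up to 4 called genes per sub-list of the wider list are named. Ermap, Add2, Gata1 and Car1 were given array by array after their values were seen. Members, lists and tests were chosen with earlier results of these data known. Alternatives were another pseudocount, a filter on low values, median centring, other variance models, only the arrays compared, the replicate block and leaving out each array. Promoter windows came from the RefSeq table of GRCm38.p6.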

Additional observations from a re-analysis of the deposited data

How the results depend on the processing

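The direction was followed over the alternatives for 16 differences: those past the threshold in either fit and the smallest p of a role without one. None of these reversed. The other differences were not followed in this way, and small ones can change sign. For Slc25a37 the full-length difference from the empty vector was -0.30 between arrays numbered 1 and 0.19 between those numbered 2. Without the block, counts of members past the limma threshold were 0 in all comparisons under most settings; median centring and robust variances each gave 1 in full-length cells against the empty vector, and the count of 1 in delFG1 cells became 0 with only probe sets of mean log2 at least 6, which drops Rhag, without the trend, or with only the 4 arrays compared. With the replicate block the counts were 6 for full-length and 4 for delFG1 cells against the empty vector and 1 each for delFG2 against the empty vector, the full-length fusion and delFG1; adding 16 to the intensities gave the same counts. With block and median centring these were 7, 4, 1, 1 and 1, and with block and no trend 5 and 5 for full-length and delFG1 cells and 0 for the others. The 7 included Ermap, and the 5 in delFG1 cells included Add2. Of the wider list, 12, 12 and 2 passed with the block in full-length, delFG1 and delFG2 cells against the empty vector and 1 between the mutants, the same with 16 added; median centring made these 14, 12, 2 and 1 and added 1 between delFG1 and full-length cells, and leaving out the trend gave 7 and 8. Leaving out 1 array at a time with the block gave 2 to 9 members in full-length and 2 to 7 in delFG1 cells against the empty vector, 0 to 2 in delFG2 cells against either the empty vector or the full-length fusion and 0 to 1 between the mutants; the 2 came without full-length array 1 and the 9 without empty vector array 2. Without the block it gave 0 to 1 in delFG1 cells against the empty vector and 0 elsewhere. The wider list gave 2 to 13, 3 to 15 and 0 to 7 against the empty vector in full-length, delFG1 and delFG2 cells, 0 to 1 and 0 to 2 for delFG1 and delFG2 against the full-length fusion and 0 to 3 between the mutants. The members that differed by array number were 1 to 3. The cause of these changes was not tested.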
